A study of Mus musculus with 17 samples.

Results

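The 9 genes described here make, sense or break down prostaglandins: Ptgs1, Ptgs2, Ptges, Ptgds, Ptgis, Ptger2, Ptger3, Ptger4 and Hpgd. They were taken by name from the 30406 genes that all 17 single-cell libraries list. No measured value enters that rule, but the genes were chosen with earlier results of these data known. Cyclooxygenases turn arachidonic acid into an unstable intermediate from which separate synthases make prostaglandin E2, prostaglandin D2 or prostacyclin. Prostaglandin E2 acts through G protein-coupled receptors on neighbouring cells, and 15-hydroxyprostaglandin dehydrogenase inactivates it. In skin and kidney these lipids act on blood flow, inflammation and, in the renal tubule, salt and water transport.

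The libraries hold GFP+ cells sorted from the skin (8 libraries) or the kidney (9 libraries) of 8-week-old mice that carried PDGFRb-Cre and the Z/EG reporter. SARATg mice also carried a human ZFYVE9 cDNA (the SARA protein) behind a lox-stop-lox cassette in Rosa26, and SARAWT mice did not. A cell keeps GFP once the Cre has acted in it or its precursors, and the GFP+ cells here included leukocytes, stroma and epithelium. Skin received bleomycin by subcutaneous injection, by the labels at 20 mg/kg 3 times a week for 2 weeks, or PBS (SARAWT, 3 and 3 libraries; SARATg, 1 and 1). Kidneys came from mice given aristolochic acid (AA) intraperitoneally at 5 mg/kg 3 times a week for 3 weeks, or vehicle (SARAWT, 3 and 3 libraries; SARATg, 1 with AA and 2 with vehicle). The labels do not say whether libraries of a group came from separate mice, so p-values measure the spread between libraries.

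Levels are UMI counts (unique transcript tags) summed over the cells of a class in one library, scaled by the total of that class in that library (CPM). A cell joined a class when it expressed at least 3 of that class's 10 marker genes and at least 2 more than of any other class, and a class entered with 10 or more cells. Between 50% and 78.1% of kept cells in skin libraries and between 86.8% and 95.8% in kidney libraries fell into a class. The class called T cells here also takes in innate lymphoid cells. The libraries hold 776 to 10606 kept cells, with 1266 to 11047 median UMIs per cell. Pdgfrb itself, the gene whose promoter drives the sort, stood at 6.41 to 59.2 CPM over all skin cells and at 0.202 to 2.71 CPM over all kidney cells, while the leukocyte gene Ptprc stood at 341 to 599 and 52.6 to 514 CPM.

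Several libraries stood apart or went against their labels. Mouse Zfyve9 stood at 222 and 314 CPM in the SARATg skin libraries but at 615 CPM in the library labelled SARAWT PBS 3. Human ZFYVE9 is listed in 4 SARAWT skin libraries, at 835 CPM in the one labelled PBS 1 and 86.8 to 188 CPM in the other 3. In kidney, Zfyve9 stood at 163 CPM in the library labelled SARAWT AA 1 against 10.3 to 31.5 CPM in the other SARAWT libraries, and the library labelled SARATg AA 1 had 19.6 CPM against 89.5 and 92.1 CPM with vehicle. The SARAWT skin libraries 1 and 2 of both treatments shared 233 to 464 cell barcodes pairwise. In PBS 2, 55.5% of barcodes occurred in another skin library, in Bleo 1 and Bleo 2 17.6% and 22.1%, in PBS 1 7.38%, and elsewhere in skin at most 0.824%. Same-numbered SARAWT skin libraries also shared the gene list they were counted on, and Xist was at 439 to 680 CPM in libraries 1 and 2 of both SARAWT groups and under 1 CPM in libraries 3 and in SARATg. In kidney it was at 1319 CPM in SARAWT vehicle 2 and 1315 CPM in SARATg AA 1, and under 1 CPM in the other 7 libraries. Hpgd and Ptgs2 in skin fibroblasts, Hpgd in skin phagocytes and the sums over skin cells are therefore also given without shared barcodes.

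The promoters of 3 genes are shown because their products stand at the entry and the exit of the pathway and their levels carry the results that follow. RefSeq (GRCm38.p6) gives these 250 bases directly upstream of the annotated start, all on the plus strand, at chr2:36230176-36230425 for Ptgs1 (cyclooxygenase 1), chr1:150099781-150100030 for Ptgs2 (cyclooxygenase 2) and chr8:56294302-56294551 for Hpgd. The RefSeq start of Hpgd lies upstream of the gene start given below (56294585). Capitals mark matches to any of 6 motifs searched on both strands. The TATA box was searched as the letters TATAAA. The palindrome bound by C/EBP factors was searched as TTGCGCAA. The core of the cyclic AMP response element (CRE core) was searched as TGACGT. The E-box was searched as CACGTG. The GC box was searched as GGGCGG, and the last of the motifs was the CCAAT box, named by its letters. No matches overlapped.
Ptgs1: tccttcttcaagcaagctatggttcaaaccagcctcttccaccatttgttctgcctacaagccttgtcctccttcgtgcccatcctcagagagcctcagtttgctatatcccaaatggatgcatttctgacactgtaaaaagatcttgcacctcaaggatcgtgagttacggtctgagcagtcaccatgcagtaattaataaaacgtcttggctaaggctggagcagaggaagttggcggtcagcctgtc
Ptgs2: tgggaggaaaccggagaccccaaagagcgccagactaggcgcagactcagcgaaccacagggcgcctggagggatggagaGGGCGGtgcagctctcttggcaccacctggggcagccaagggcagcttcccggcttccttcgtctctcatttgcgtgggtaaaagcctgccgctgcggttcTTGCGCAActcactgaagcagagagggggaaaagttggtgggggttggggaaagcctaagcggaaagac
Hpgd: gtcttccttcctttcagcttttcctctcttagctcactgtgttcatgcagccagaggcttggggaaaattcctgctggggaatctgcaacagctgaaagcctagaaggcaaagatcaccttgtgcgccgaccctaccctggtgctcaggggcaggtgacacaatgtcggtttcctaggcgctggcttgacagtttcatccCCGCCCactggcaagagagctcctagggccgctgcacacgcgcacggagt
The C/EBP palindrome lay 69 bases before the start of Ptgs2 and occurs in 0.164% of the 32851 promoters of the table. A GC box lay 170 bases before the start of Ptgs2 and 50 bases before that of Hpgd, and occurs in 32.7% of promoters. The Ptgs1 window held none of the 6 motifs, of which the TATA box, the CRE core, the E-box and the CCAAT box occur in 12.4%, 6.47%, 6.02% and 33.8% of promoters. The matches are a description of these letters and not of any factor's binding.

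Levels are given first for each gene over all libraries of a tissue, in the order synthesis, receptors and breakdown.

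**Figure D1:**
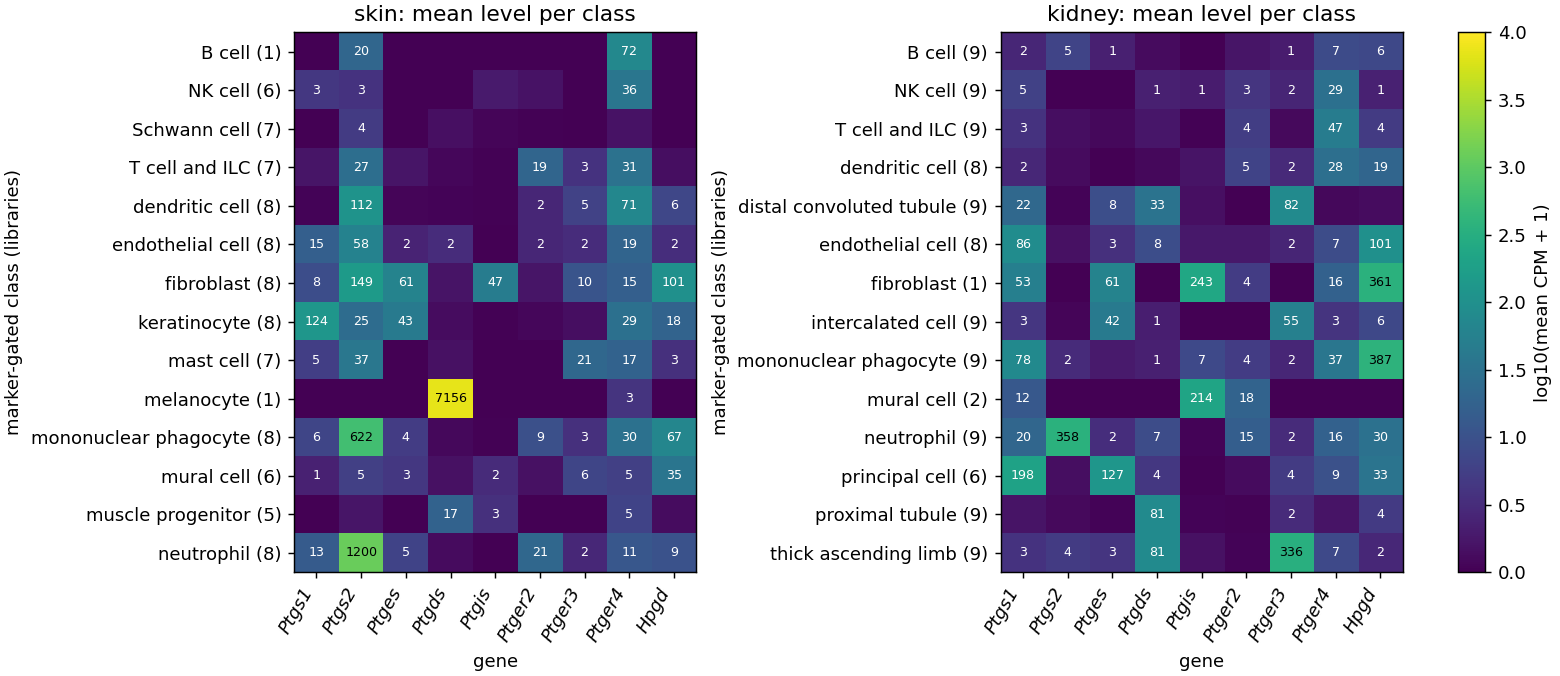
Mean level of each of the 9 genes (columns) in each marker-gated class (rows, with the number of libraries) of skin (left) and kidney (right), over all libraries of the tissue. Colour is log10(mean CPM + 1) and the printed number is the mean CPM where it is 1 or more, so that Ptgs2 stands out in skin neutrophils (1200 CPM), Ptger3 in the thick ascending limb (336 CPM) and Ptgds in the melanocytes of 1 library (7156 CPM).

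Ptgs1 (ENSMUSG00000047250, chromosome 2, 36230426 to 36252272 of GRCm38, plus strand), the constitutive cyclooxygenase, was a keratinocyte gene among the skin cells. It stood at 124 ± 56.8 CPM in keratinocytes (SD, n = 8 libraries), above the next class, endothelial cells, in 8 of 8 libraries, and keratinocytes held 63.0% of its skin UMIs. In kidney the order was principal cells of the collecting duct (198 ± 54.5 CPM, n = 6), endothelial cells (86.2 ± 42.9, n = 8) and mononuclear phagocytes (78.0 ± 28.8, n = 9). The last 2 did not differ beyond their spread, since endothelial cells were higher in 4 of 8 libraries. Phagocytes held 67.9% of the kidney UMIs of Ptgs1, and their counterparts in skin stood at only 5.94 ± 4.32 CPM (n = 8).

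Ptgs2 (ENSMUSG00000032487, chromosome 1, 150100031 to 150108227, plus strand), the inducible cyclooxygenase, was highest in neutrophils of both tissues. Skin neutrophils held 1200 ± 560 CPM and were above phagocytes (622 ± 510) in 7 of 8 libraries. Phagocytes held 53.3% of its skin UMIs. In kidney, neutrophils (358 ± 337 CPM, range 108 to 1051, n = 9) were above the next class, B cells, in 9 of 9 libraries and beyond the spread of both. Kidney phagocytes held 2.06 ± 1.28 CPM (n = 9), and all kidney cells together held 1568 Ptgs2 UMIs against 100633 in skin.

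Among the synthases, Ptges (ENSMUSG00000050737, chromosome 2, 30889471 to 30929863, minus strand), which makes prostaglandin E2, was found in skin fibroblasts (61.4 ± 17.1 CPM, n = 8) and keratinocytes (42.7 ± 24.6). Fibroblasts were the higher of these in 7 of 8 libraries, though the ranges overlapped. In kidney it stood at 127 ± 28.9 CPM in principal cells (n = 6) and 42.2 ± 32.9 CPM in intercalated cells (n = 9). Principal cells were therefore the leading class of both Ptgs1 and Ptges in kidney.

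Ptgds (ENSMUSG00000015090, chromosome 2, 25466709 to 25470046, minus strand), the lipocalin-type prostaglandin D synthase, had 91.8% of its skin UMIs in melanocytes. Only the library labelled SARAWT PBS 3 had 10 or more of these cells, 23 in all, with 7156 CPM (95% Poisson interval 6870 to 7451, counting error only). In kidney it stood at 81.5 ± 39.5 CPM in the thick ascending limb and 81.4 ± 67.8 CPM in the proximal tubule (n = 9), and neither was regularly the higher. Ptgis (ENSMUSG00000017969, chromosome 2, 167191805 to 167240604, minus strand), prostacyclin synthase, had 98.4% of its skin UMIs in fibroblasts. In kidney it was highest in the few stromal cells gated, at 243 CPM in the fibroblasts of SARATg vehicle 2 (37 cells) and at 70.5 and 357 CPM in mural cells (13 cells in each of 2 libraries).

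Ptger3 (ENSMUSG00000040016, chromosome 3, 157566892 to 157645888, plus strand), the receptor EP3, stood at 336 ± 58.9 CPM in the thick ascending limb, with its lowest library (235) above the highest of the next class, the distal convoluted tubule (81.6 ± 53.4, range 35.9 to 208). Intercalated cells followed at 54.6 ± 15.4 CPM, lower than the distal convoluted tubule in 7 of 9 libraries. In skin its levels were low, at 20.9 ± 11.2 CPM in mast cells (n = 7, 32 UMIs in all) and 10.1 ± 8.32 CPM in fibroblasts (n = 8), with 29.0% of its skin UMIs in fibroblasts and 44.7% in cells outside every class. Ptger4 (ENSMUSG00000039942, chromosome 15, 5206661 to 5244187, minus strand), the receptor EP4, stood at 70.6 ± 20.2 CPM in skin dendritic cells (n = 8), 71.8 CPM in the B cells of 1 skin library (11 UMIs), 46.8 ± 7.37 CPM in kidney T cells and 36.8 ± 8.62 CPM in kidney phagocytes (n = 9 each). Skin keratinocytes (29.2 ± 14.2 CPM) and phagocytes (30.2 ± 16.6 CPM) did not differ beyond their spread, and skin fibroblasts held 15.4 ± 5.73 CPM (n = 8 each). Ptger2 (ENSMUSG00000037759, chromosome 14, 44988195 to 45003820, plus strand), the receptor EP2, had 19.1 ± 13.3 CPM in skin T cells (n = 7) and 4.35 ± 2.36 CPM in kidney T cells (n = 9). Neutrophils had the highest mean of Ptger2 in skin (21.0 ± 32.7 CPM, n = 8), above T cells in 3 of 7 libraries only, on 68 UMIs. In kidney the means of mural cells (17.6 ± 24.9 CPM, n = 2, 3 UMIs), neutrophils (14.5 ± 17.9, n = 9) and dendritic cells (5.28 ± 3.82, n = 8) were above that of T cells, within their spread.

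Hpgd (ENSMUSG00000031613, chromosome 8, 56294585 to 56321043, plus strand), which inactivates prostaglandins, stood at 101 ± 78.7 CPM in skin fibroblasts and 67.1 ± 47.0 CPM in skin phagocytes (n = 8). In kidney it was highest in phagocytes, at 387 ± 359 CPM (n = 9, range 8.32 to 854), which held 73.9% of its kidney UMIs. The fibroblasts of SARATg vehicle 2 held 361 CPM (89 UMIs). Skin T cells held 0 to 2.00 CPM of Hpgd.

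Across the 28 tissue-class means, the genes with the pattern most like a member differed by member (Pearson's r of log2(CPM + 1), given as a description, over classes that share libraries). For Ptgs2 they were Cxcl3 (0.91), Il1b (0.88) and Il1rn (0.85), a chemokine, a cytokine and a cytokine antagonist that were likewise highest in skin neutrophils. For Ptger3 they were Lrrc66 (0.89), 1700028J19Rik (0.87) and Casr (0.85), the last the calcium-sensing receptor. For Ptgis they were Angpt4 (0.92), Sfrp2 (0.91) and Prdm6 (0.90). For Ptges they were Nipal2 (0.84), Hebp2 (0.82) and Naaladl2 (0.80), for Ptger2 Ltb4r1 (0.84), Cdk2ap2 (0.79) and Samhd1 (0.77), and for Ptgds Gm45847 (0.83), Trim63 (0.83) and Npy (0.79). For Ptger4 they were Fau (0.81), Ripk3 (0.79) and Rps29 (0.77). For Hpgd they were Clmp (0.75), Fut4 (0.74) and Ifi204 (0.73), and for Ptgs1 Gata6 (0.69), F11r (0.68) and Sprr1a (0.68).

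The first comparison asked whether bleomycin changed these genes in SARAWT skin. Hpgd stood lower in every bleomycin library than in every PBS library in fibroblasts and phagocytes, and in fibroblasts this was lost without shared barcodes. In keratinocytes, where it was too low to be tested (94 UMIs), it stood the other way, at 14.1, 7.64 and 8.26 CPM with PBS and 19.0, 15.2 and 24.0 CPM with bleomycin, as did 5.57% of the genes tested there. No member passed the test in any class (edgeR quasi-likelihood, Benjamini-Hochberg adjusted p under 0.05), with 0 of 26 member-class pairs called, where 0.931% of all 61675 gene-class pairs were. Without adjustment, p was under 0.05 for 8 of the 26, each lower after bleomycin, and for 14.2% of all gene-class pairs in either direction. The share of all pairs that were lower was not taken, and 3 of the 8 were Hpgd. DESeq2 called 4 of the 26, namely Hpgd in phagocytes and fibroblasts, Ptgs2 in fibroblasts and Ptger3 in T cells, and 2.98% of the gene-class pairs to which it gave an adjusted p. Ptger3 in T cells passed the filter on low counts only through its PBS libraries, so neither its call nor its place among the 8 supports anything. By class, the share of genes called in either direction, lower and higher was 0.0535%, 0.00891% and 0.0446% in phagocytes and 0.7%, 0.218% and 0.482% in fibroblasts. It was 0% in neutrophils, dendritic cells, T cells and keratinocytes. In Schwann cells (6.36%, 3.58% and 2.77%) and muscle progenitors (4.53%, 2.69% and 1.84%) no member was tested. They cover 8 of the 9 genes, since Ptgds passed the filter on low counts in no class.

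In fibroblasts Hpgd stood at 175, 154 and 134 CPM in PBS libraries 1, 2 and 3 and at 12.7, 61.3 and 47.6 CPM in bleomycin libraries 1, 2 and 3. The groups did not overlap, which held in this direction for 14.7% of the genes tested in fibroblasts. The log2 difference was -1.92 ± 0.46 (SE, adjusted p = 0.0709, edgeR, and 0.000624 with DESeq2), and with the library number as a block it was -2.10 (adjusted p = 0.0419). With all skin libraries and genotype as a term it was -2.64 (adjusted p = 0.0354, edgeR). Most fibroblasts of 3 libraries had barcodes found in another library, namely 124 of 155 in PBS 2, 110 of 144 in Bleo 1 and 136 of 200 in Bleo 2. The fibroblasts of these 3 libraries held a median of 1172, 1480 and 1263 UMIs per cell, against 11262 to 34418 in the other 5 skin libraries. Leaving out such barcodes, like taking PBS 2 alone, was chosen after seeing the data. Without them PBS stood at 150, 64.1 and 134 CPM and bleomycin at 43.4, 115 and 47.8 CPM, so that the groups overlapped, and the log2 difference was -0.83 (adjusted p = 0.493, or 0.375 with the block, edgeR). The value in PBS 2 then rested on 6 Hpgd UMIs in 31 cells.

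In phagocytes Hpgd stood at 138, 140 and 47.9 CPM with PBS and at 34.5, 43.2 and 21.6 CPM with bleomycin. All PBS libraries lay above all bleomycin libraries, as in this direction did 10.0% of the genes tested there, although PBS 3 was near the bleomycin range. The log2 difference was -1.59 ± 0.41 (adjusted p = 0.265, edgeR, and 0.00785 with DESeq2) and, with the block, -1.53 (adjusted p = 0.0344). With own barcodes only, PBS stood at 137, 160 and 48.3 CPM and bleomycin at 29.6, 47.8 and 21.7 CPM, and the blocked log2 difference was -1.60 (adjusted p = 0.0202, edgeR). PBS 2 itself held 188 CPM of human ZFYVE9, and 63 of its 126 phagocytes had a barcode found in another library. With PBS 2 as the only PBS library, which leaves out both PBS libraries with high SARA transcript, the log2 difference was -1.95 (edgeR, the lone library taken to vary like the others). Without PBS 3 alone it was -1.90 (adjusted p = 0.0124, edgeR), in a fit that called 7.46% of genes against 0.0535%. Of 21 alternative settings, 5 called phagocyte Hpgd, 4 fibroblast Hpgd and 3 fibroblast Ptgs2. The block in phagocytes rests on library numbers that were not shown to pair all libraries.

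Within these phagocytes, 4 resident macrophage genes (Folr2, Cd163, Mrc1 and Lyve1) summed to 1631 to 4547 CPM with PBS and to 1072 to 1550 CPM with bleomycin. The monocyte genes Ly6c2, Ccr2, Plac8 and Chil3 summed to 287 to 1190 CPM with PBS and 1466 to 1632 CPM with bleomycin. Both lists were picked after their values were seen, and their part in the Hpgd difference was not tested.

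In SARATg skin Hpgd was also lower with bleomycin, at 7.84 CPM in fibroblasts (95% Poisson interval 6.50 to 9.39) against 215 CPM (208 to 222) with PBS. In SARATg phagocytes it stood at 35.9 CPM (33.2 to 38.7) against 75.9 CPM (68.9 to 83.5). With 1 library per group these intervals cover counting error only. The treatment effect on fibroblast Hpgd differed between genotypes by -3.31 ± 0.88 on the log2 scale, which did not pass the test (adjusted p = 0.426, edgeR). In dendritic cells the SARAWT values were 6.56, 0 and 14.7 CPM with PBS and 0.922, 2.98 and 2.21 CPM with bleomycin, and PBS 2, with 28 dendritic cells, made the groups overlap. Its count of 0 allows a level of up to 9.93 CPM.

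**Figure D2:**
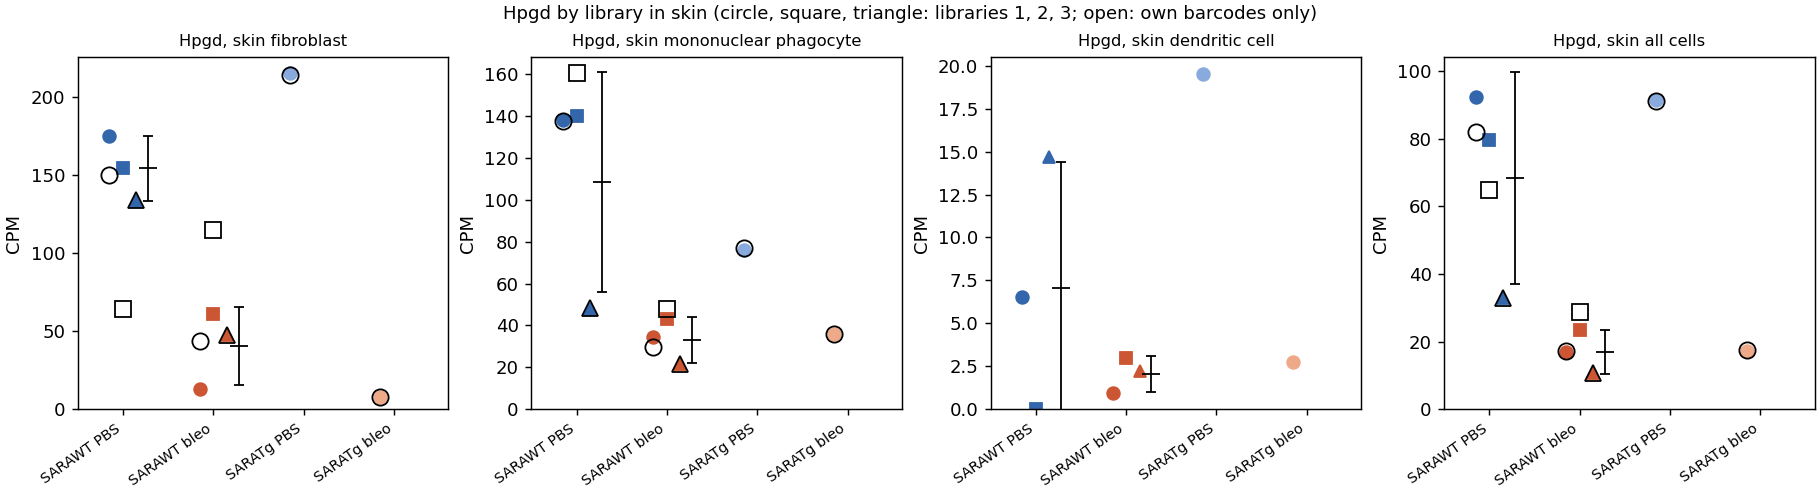
Hpgd level (CPM, linear axis from 0) in each skin library for fibroblasts, mononuclear phagocytes, dendritic cells and all cells; filled symbols are all kept cells, open symbols only cells whose barcode occurs in no other library (not drawn for dendritic cells), and bars are mean ± SD over 3 libraries, cut at 0. In phagocytes the 3 bleomycin libraries (21.6 to 43.2 CPM) lie below the 3 PBS libraries (47.9 to 140), and in fibroblasts the open squares show the overlap once shared barcodes are left out.

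Ptgs2 in skin fibroblasts stood at 156, 277 and 292 CPM with PBS and 113, 107 and 87.2 CPM with bleomycin. The groups again did not overlap, as for 14.7% of the genes tested in fibroblasts in this direction. The log2 difference was -1.22 ± 0.30 (adjusted p = 0.0769, edgeR, and 0.00783 with DESeq2), and -1.16 with the block (adjusted p = 0.0682). With own barcodes only, PBS stood at 151, 1047 and 293 CPM and bleomycin at 13.6, 62.9 and 89.3 CPM, with a log2 difference of -2.85 (adjusted p = 0.183) and, with the block, -2.88 (adjusted p = 0.0356, edgeR). The outermost of these values rested on few cells, with 98 Ptgs2 UMIs in 31 cells of PBS 2 and 5 UMIs in 34 cells of Bleo 1. SARATg fibroblasts held 68.1 CPM with PBS and 93.8 CPM with bleomycin, the opposite order. Keratinocyte Ptgs2, too low to be tested (243 UMIs, of which PBS 3 held 201), stood at 14.7, 38.2 and 36.9 CPM with PBS and 0, 10.9 and 12.9 CPM with bleomycin, also without overlap, as did 11.7% of the genes tested there. SARATg keratinocytes again had the opposite order, at 21.6 CPM with PBS and 63.3 CPM with bleomycin.

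Phagocyte Ptgs2 stood at 165, 148 and 1431 CPM with PBS and at 266, 552 and 1375 CPM with bleomycin, so that both libraries numbered 3 were far above the rest. The log2 difference was 0.34 ± 0.96 (adjusted p = 0.939, edgeR) and, with the block, 0.90 ± 0.35 (adjusted p = 0.257, edgeR). Skin neutrophils overlapped too, with 1473, 532 and 1554 CPM against 1723, 647 and 1902 CPM (log2 difference 0.26 ± 0.50, adjusted p = 0.982, edgeR). Each bleomycin library was above the PBS library of the same number, and with the block the log2 difference was 0.30 ± 0.30 (adjusted p = 0.848, edgeR).

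**Figure D3:**
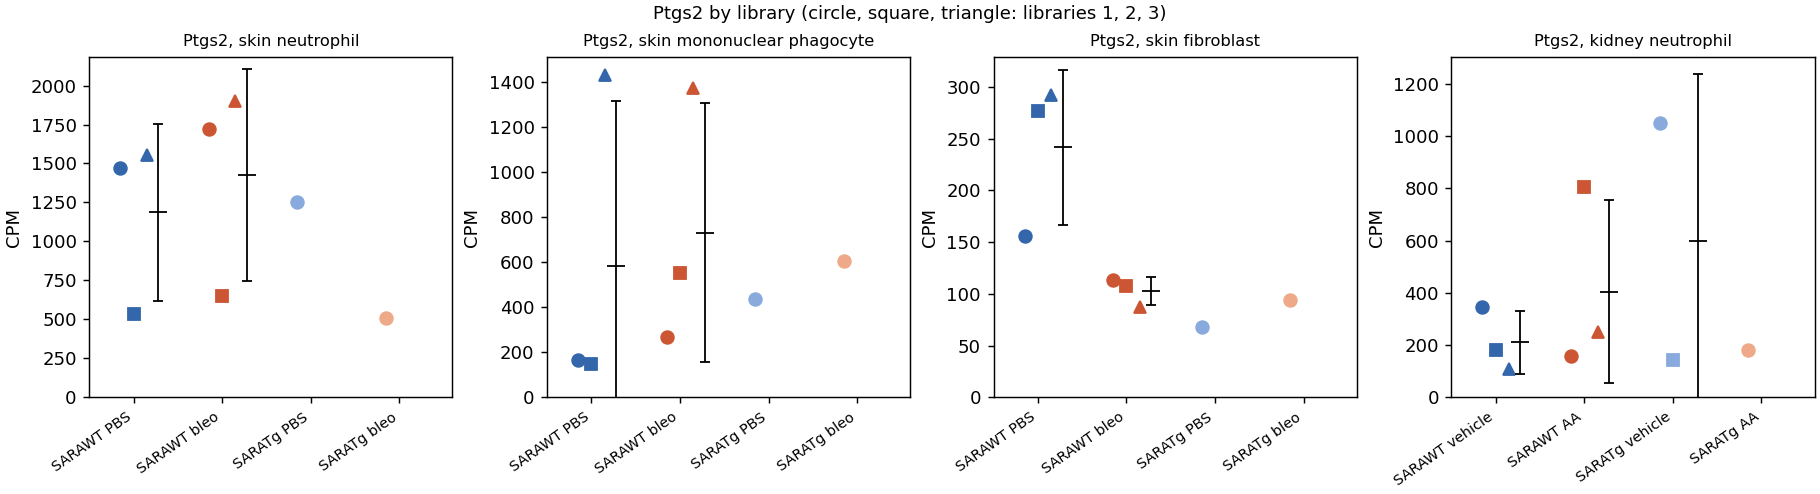
Ptgs2 level (CPM, linear axis from 0) in each library for skin neutrophils, skin mononuclear phagocytes, skin fibroblasts and kidney neutrophils; bars are mean ± SD where a group has 2 or more libraries, cut at 0. In skin phagocytes the triangles, libraries 3 of both treatments, sit at 1375 and 1431 CPM, above all other libraries.

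Of the other enzymes, fibroblast Ptgs1 stood at 10.4, 11.8 and 9.99 CPM with PBS and 1.59, 3.19 and 8.46 CPM with bleomycin (log2 difference -1.22 ± 0.53, adjusted p = 0.213, edgeR). It had 0 UMIs in PBS 2 once shared barcodes were left out. Keratinocyte Ptgs1 overlapped between groups, at 108, 115 and 52.9 against 142, 189 and 62.7 CPM. Fibroblast Ptges did not separate them either, at 57.7, 91.5 and 61.1 against 72.2, 71.5 and 42.7 CPM (log2 difference -0.11 ± 0.29, adjusted p = 0.852, edgeR). Fibroblast Ptgis varied widely among libraries of one group, at 17.6, 34.0 and 13.8 CPM with PBS and 4.76, 1.28 and 84.1 CPM with bleomycin, and at 10.2 CPM (8.77 to 11.8) in SARATg PBS and 210 CPM (203 to 218) in SARATg bleomycin. With own barcodes only it stood at 20.5, 21.4 and 13.1 CPM with PBS and 0, 0 and 86.1 CPM with bleomycin. The SARAWT log2 difference was 0.63 ± 1.09 and, with the block, -0.40 ± 1.18 (adjusted p = 0.768 and 0.851, edgeR).

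Among the receptors, T cell Ptger3 stood at 9.65 and 4.66 CPM in PBS 1 and PBS 3, and 0, 0 and 0.134 CPM with bleomycin. These are 10 and 19 UMIs against 0, 0 and 1, and the counts of 0 allow up to 3.00 and 1.19 CPM. The PBS values come from the 2 libraries with high SARA transcript, since PBS 2 held 8 T cells. The gene passed the filter on low counts only through those PBS libraries, so its test (adjusted p = 0.290, edgeR, and 0.0224 with DESeq2) is given as a description only. Groups that did not overlap in this direction made up 16.1% of genes tested in T cells. SARATg T cells held 4.20 CPM with PBS and 0.919 CPM with bleomycin. Dendritic cell Ptger3 stood at 9.08, 6.62 and 6.27 against 1.23, 4.10 and 1.89 CPM (log2 difference -1.62 ± 0.50, adjusted p = 0.347, edgeR). Ptger2 in phagocytes stood at 6.69, 12.5 and 19.3 CPM with PBS and 4.14, 4.31 and 5.33 CPM with bleomycin (log2 difference -1.43 ± 0.45, adjusted p = 0.336, edgeR). Ptger4 in T cells was 58.9 and 27.96 against 18.0, 18.6 and 24.7 CPM (log2 difference -0.90 ± 0.34, adjusted p = 0.741, edgeR).

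Summed over all skin cells, 0 of 9 members were called, as were 0% of all 15261 genes tested (edgeR). Before adjustment 5 were under 0.05, each lower with bleomycin, against 18.3% of all genes in either direction. With DESeq2, 4 were called (Hpgd, Ptger3, Ptgs1 and Ptges), as were 8.76% of all genes. In the same 4 all bleomycin libraries lay below all PBS libraries, as in 17.4% of all genes. Hpgd stood at 92.4, 79.8 and 32.9 CPM with PBS and 16.8, 23.5 and 10.6 CPM with bleomycin (log2 difference -1.83 ± 0.41, adjusted p = 0.0892, and 0.0155 with the block, edgeR). Ptges stood at 18.2, 25.7 and 14.6 against 8.99, 7.24 and 6.35 CPM (-1.20 ± 0.26 on the log2 scale, adjusted p = 0.0829, and 0.0483 with the block, edgeR). Ptgs1 stood at 14.1, 12.4 and 8.59 against 4.63, 5.41 and 3.53 CPM (-1.21 ± 0.27 on the log2 scale, adjusted p = 0.0864, and 0.0390 with the block, edgeR). The library numbers were not shown to pair all libraries here. With own barcodes only, the blocked log2 differences were -1.50, -1.25 and -1.33 for Hpgd, Ptges and Ptgs1 (adjusted p = 0.0839, 0.248 and 0.102, edgeR). The groups then overlapped for Ptges, at 5.51 CPM in PBS 2 (4 UMIs) and 6.32 CPM in Bleo 3, while Hpgd stood at 33.0 to 81.9 against 10.6 to 28.6 CPM and Ptgs1 at 8.62 to 14.8 against 3.53 to 4.78 CPM. Without PBS 3 the unblocked values were 0.0249, 0.0406 and 0.0407 (edgeR), with 6.72% of all genes called. Cell shares moved with these sums. Fibroblasts made up 7.94% to 20.0% of kept cells with PBS and 2.09% to 9.39% with bleomycin, ranges that overlapped. Keratinocytes, which held 638 of the 1307 Ptgs1 UMIs of these libraries, made up 2.32% to 6.76% with PBS and 0.741% to 2.02% with bleomycin, without overlap. The part of these shares in the sums was not tested. Ptgds over all cells was 51.6 CPM in PBS 3, the library with the melanocytes, and 0.423 to 2.49 CPM in the other SARAWT and SARATg libraries.

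**Figure D4:**
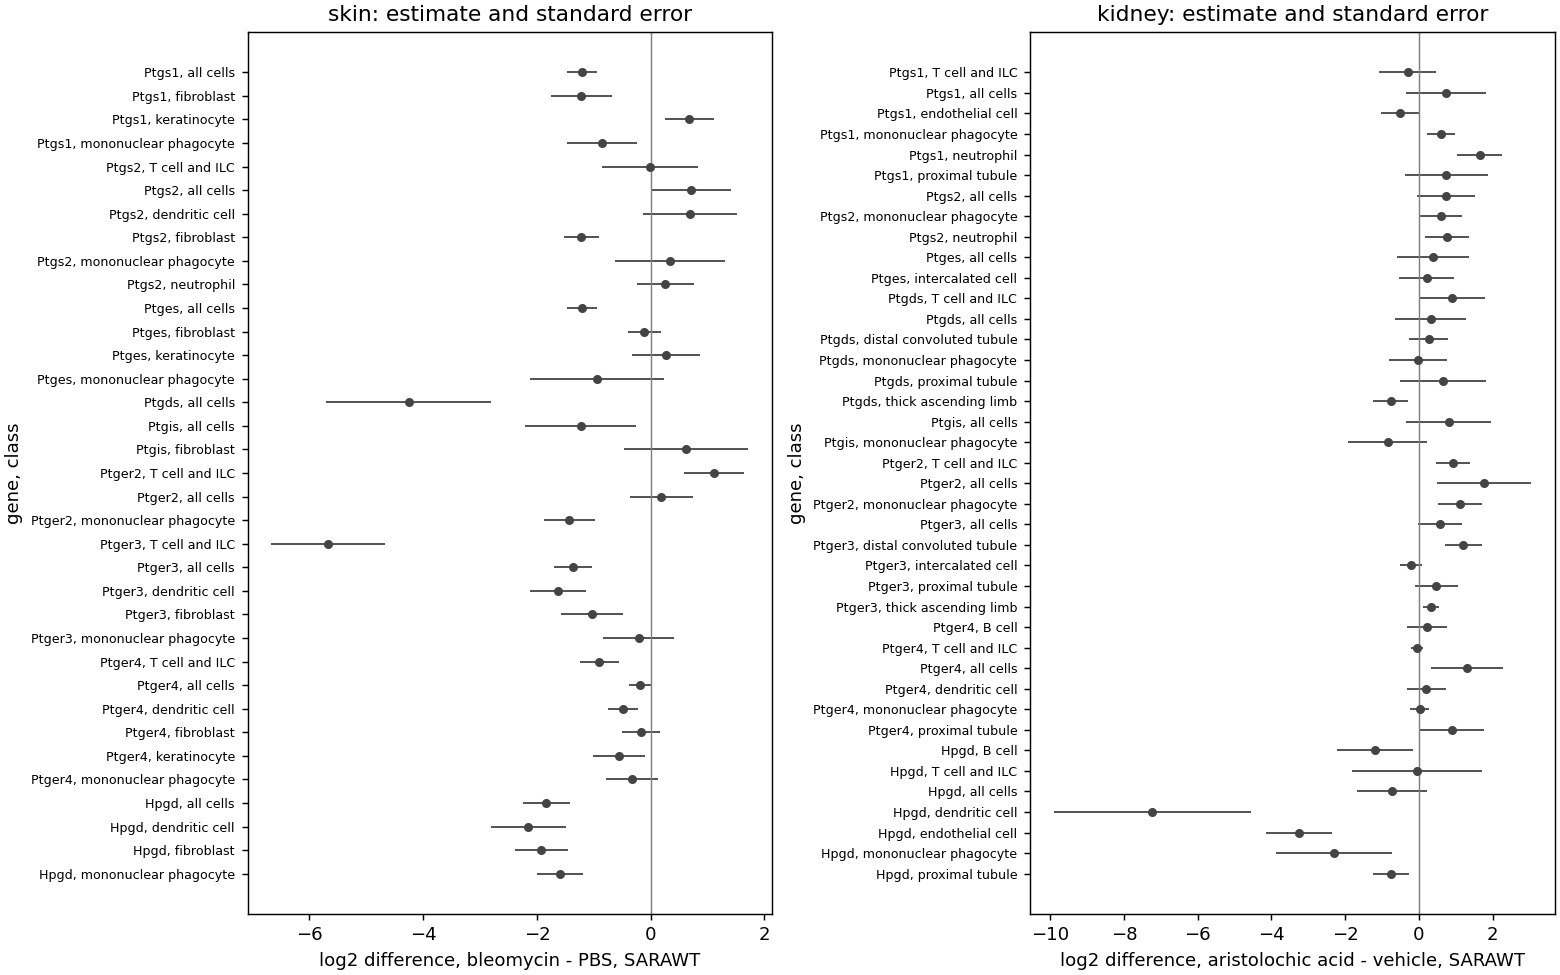
Log2 difference between treated and control SARAWT libraries (points, with SE as bars) for every member tested in a class or over all cells, in skin (left, bleomycin minus PBS) and kidney (right, aristolochic acid minus vehicle). In skin 19 of 26 class values lie below 0, and in kidney 13 of 31; none passed the adjusted threshold.

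The second comparison asked the same of aristolochic acid in SARAWT kidney, and the vehicle libraries themselves differed widely. No member passed in any class, with 0 of 31 member-class pairs called, where 0.00121% of all 82310 gene-class pairs were (edgeR). The single call, 0.0141% of genes in endothelial cells, was higher with AA. Without adjustment, p was under 0.05 for 4 of the 31, higher for Ptgs1 in neutrophils and Ptger3 in the distal convoluted tubule and lower for Hpgd in endothelial and dendritic cells, and for 7.08% of all gene-class pairs. Ptgs1 in neutrophils and Hpgd in dendritic and endothelial cells passed the filter on low counts only through the group where each was high. Their place in this count therefore supports nothing. DESeq2 called 1 of the 31, Hpgd in endothelial cells, and 0.323% of all gene-class pairs. That call supports nothing for the same reason. Vehicle 3 held 17.1% proximal tubule and 44.5% T cells, whereas vehicle 1 and 2 held 83.1% and 73.3% proximal tubule and 2.88% and 3.78% T cells. The AA libraries held 8.60% to 35.6% proximal tubule and 41.7% to 58.0% T cells. Without the library labelled SARAWT AA 1, 0 member-class pairs and 0 members over all cells were called (edgeR).

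Hpgd in kidney phagocytes stood at 681, 831 and 13.997 CPM in vehicle libraries 1, 2 and 3 and at 8.32, 277 and 14.8 CPM in AA libraries 1, 2 and 3. Vehicle 3 was thus at the level of AA 1 and AA 3, and the groups overlapped (log2 difference -2.30 ± 1.58, adjusted p = 0.830, edgeR). Without AA 1 the log2 difference was -1.75 (adjusted p = 0.966, edgeR). SARATg phagocytes held 854 and 619 CPM with vehicle and 188 CPM in the library labelled SARATg AA, where Zfyve9 was low as described above. The resident macrophage genes named above summed to 249 to 555 CPM and the monocyte genes to 944 to 2793 CPM over these 9 libraries. In vehicle 3 they summed to 420 and 1138 CPM. Both lists were picked after their values were seen, and their part in the kidney Hpgd levels was not tested.

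Hpgd in kidney endothelial cells stood at 115, 360 and 69.1 CPM with vehicle and at 20.7 and 0 CPM in AA 1 and AA 2. AA 2 had 19 of these cells, and its count of 0 allows up to 52.3 CPM. The groups did not overlap, as for 13.1% of genes tested there in this direction, and the difference did not pass with edgeR (log2 difference -3.26 ± 0.90, adjusted p = 0.9996) but did with DESeq2 (-3.39 ± 0.88, adjusted p = 0.0423). Of 18 alternatives 3 called it, the others being the block (-2.97, adjusted p = 0.0426, edgeR), where the numbers were not shown to pair the libraries, and no filter on low counts. Endothelial Hpgd passed that filter only through its vehicle libraries, so the DESeq2 and block calls support nothing. SARATg endothelial cells held 30.1 and 120 CPM with vehicle and 89.1 CPM in the library labelled SARATg AA. With all kidney libraries and genotype as a term the log2 difference was -1.30 (adjusted p = 0.906, edgeR). Among the SARAWT AA libraries, the one labelled AA 1 supplied all 14 UMIs. Dendritic cell Hpgd stood at 44.5, 23.7 and 0.474 CPM with vehicle (13, 16 and 1 UMIs) and had 0 UMIs in AA 1 and AA 3, which allow up to 1.64 and 4.93 CPM. It passed the filter on low counts only through vehicle 1 and 2.

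Ptgds in the proximal tubule also varied more between vehicle libraries than between treatments, at 2.39, 39.4 and 179 CPM with vehicle and 93.0, 123 and 176 CPM with AA (log2 difference 0.65 ± 1.16, adjusted p = 0.814, edgeR). Ptgs1 in phagocytes stood at 35.2, 66.0 and 99.0 against 93.8, 119 and 103 CPM (0.60 ± 0.37 on the log2 scale, adjusted p = 0.829, edgeR). Ptgs1 in neutrophils stood at 0, 7.27 and 9.31 CPM with vehicle (0, 8 and 8 UMIs) and 21.0, 46.6 and 42.0 CPM with AA (28, 3 and 4 UMIs), without overlap, as did 7.63% of genes tested there. It passed the filter only through the AA libraries, and its adjusted p was 0.9999 (edgeR). The count of 0 in vehicle 1 rests on 37 neutrophils at a median of 1704 UMIs, so the groups may not be apart. Ptgs2 in neutrophils stood at 345, 180 and 108 against 157, 807 and 252 CPM (0.76 ± 0.59 on the log2 scale, adjusted p = 0.9999, edgeR).

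Ptgs1 in the distal convoluted tubule stood at 32.7, 27.1 and 2.89 against 3.803, 0 and 6.10 CPM. It did not pass the filter on low counts there, and no test is given.

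Of the receptors, Ptger3 and Ptger4 are given in the classes that lead them. Ptger3 in the thick ascending limb stood at 352, 320 and 235 CPM with vehicle and 295, 385 and 417 CPM with AA (log2 difference 0.34 ± 0.22, adjusted p = 0.700, edgeR). Ptger4 in T cells stood at 61.4, 50.3 and 43.5 against 48.6, 39.1 and 47.2 CPM (log2 difference -0.06 ± 0.16, adjusted p = 0.9995, edgeR). Ptger3 in the distal convoluted tubule stood at 35.9, 57.7 and 80.9 against 72.2, 59.2 and 208 CPM (log2 difference 1.20 ± 0.50, adjusted p = 0.339, edgeR). Ptger2 in T cells stood at 2.84, 1.48 and 4.58 against 7.93, 4.63 and 5.93 CPM, all AA libraries above all vehicle libraries, as were 3.29% of the genes tested there (log2 difference 0.93 ± 0.45, adjusted p = 0.945, edgeR).

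**Figure D5:**
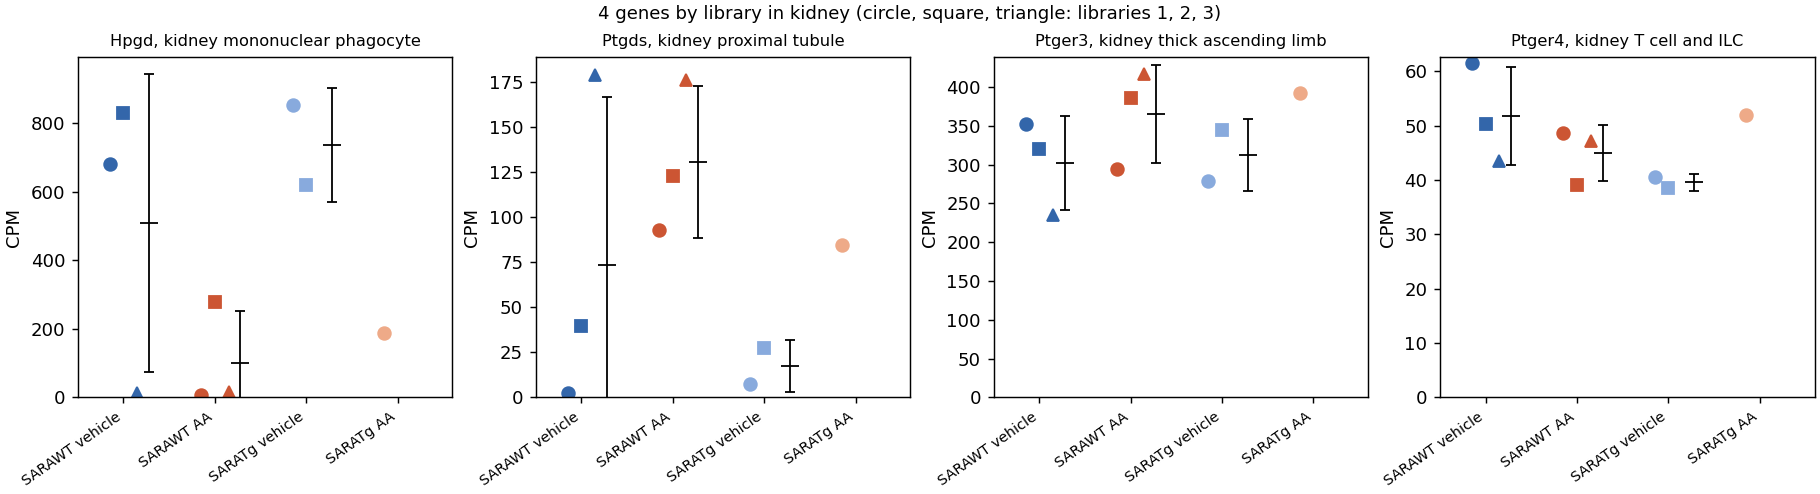
Level (CPM, linear axis from 0) in each kidney library of Hpgd in mononuclear phagocytes, Ptgds in the proximal tubule, Ptger3 in the thick ascending limb and Ptger4 in T cells; bars are mean ± SD where a group has 2 or more libraries, cut at 0. The triangle of SARAWT vehicle shows library 3, at 13.997 CPM for Hpgd beside 681 and 831 CPM in the other vehicle libraries, whereas Ptger3 stays between 235 and 417 CPM throughout.

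Over all kidney cells 0 of 9 members and 0% of all 15872 genes were called (edgeR). Before adjustment 0 were under 0.05, against 6.65% of all genes, and with DESeq2 0 members and 0.403% of genes were called. Ptger4 stood at 1.71, 3.88 and 25.2 CPM with vehicle and 32.7, 15.4 and 33.7 CPM with AA. The T cell shares given above moved with it, and their part in it was not tested. Without vehicle 3, where 20.2% of all 16269 genes were called (14.1% higher with AA), 3 members were called higher (edgeR), namely Ptger4 (log2 difference 3.21, adjusted p = 0.0181), Ptger2 (4.30, adjusted p = 0.0301) and Ptgs1 (2.90, adjusted p = 0.0353).

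No difference in treatment effect between tissues or genotypes passed the test for a member. For genotypes this says little, since SARATg had 1 library per treatment in skin and 1 AA library in kidney, and the spread came from the groups with more libraries. Some libraries also went against their genotype labels in SARA transcript. Of 23 member-class tests of kidney against skin, 4 had an unadjusted p under 0.05 and the lowest adjusted p was 0.457, and of 84 tests of SARATg against SARAWT, 9 had one and the lowest adjusted p was 0.426 (edgeR). The share of all genes at an unadjusted p under 0.05 was not taken for these fits, so the 4 and 9 have no background. Over all genes the share called for such a difference was 0% to 0.203% per class (0.11% in skin neutrophils, 0.0819% in skin NK cells, 0.0343% in the thick ascending limb, 0.0119% in intercalated cells, and, between tissues, 0.0482% in phagocytes and 0.0824% in endothelial cells). Of 26 further genes of prostaglandin and leukotriene metabolism, transport and signalling, 22 were tested in skin classes and 23 in kidney classes, and 0 of 86 and 0 of 109 gene-class pairs were called (edgeR), with 13 and 8 at an unadjusted p under 0.05 and 4 and 2 called by DESeq2, which called 2.98% and 0.323% of all gene-class pairs. The nearest in each tissue, chosen after their values were seen, were Ltc4s and Ptgfr. Ltc4s, leukotriene C4 synthase, had a log2 difference of 3.40 ± 0.80 in skin fibroblasts (adjusted p = 0.0695, edgeR), and with the block 3.57 ± 0.27 (adjusted p = 0.00711, edgeR), in a fit that called 836 of 10573 genes. No value without shared barcodes is given for Ltc4s, though fibroblast Hpgd lost its separation without them. Ptgfr, the receptor for prostaglandin F2alpha, had a log2 difference of -1.78 ± 0.32 in kidney intercalated cells (adjusted p = 0.128, edgeR). Over all cells, where all 9 members were tested, their median log2 difference was -1.21 in skin and 0.75 in kidney, beside 0.01 and -0.03 over all genes tested. For the 26 further genes, of which 24 were tested in each tissue, the median over all cells was -0.09 in skin and 0.40 in kidney. These sums also move with cell shares, whose part was not tested. By class, the median of the members tested ran from -1.06 in dendritic cells to 0.27 in keratinocytes of skin. In kidney it ran from -3.51 in dendritic cells, on Ptger4 and Hpgd alone, to 1.21 in neutrophils, on Ptgs1 and Ptgs2 alone. Hpgd and Ptgs1 passed the filter on low counts there only through the group where each was high. These kidney extremes therefore support nothing.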

How the data were processed

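GFP+ cells of skin and kidney were profiled by 10x single-cell RNA sequencing in 17 libraries. The authors deposited UMI counts per gene and barcode, whole and not normalized, and the submitters' processing notes name Cell Ranger 3.0.2, Seurat 2.3.4 and mm10. Total counts per library ran from 3355217 to 137093834, and intervals (exact Poisson, 95%) and floors (3 UMIs) cover counting error only. Positions came from the GRCm38 annotation.

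The minimum was 200 genes per cell, and the mitochondrial limit was 20% of UMIs in skin and 50% in kidney. Doublets were left out by Scrublet score in scanpy 1.11.5, at a rate proportional to the number of cells in the library. Cells were gated on 10 markers per class. Groups came from the labels. Counts were summed per library and class (at least 10 cells, at least 2 libraries per arm) and tested with edgeR 4.0.16 (quasi-likelihood, TMM, filterByExpr) in R 4.3.3, with Benjamini-Hochberg adjustment over all genes of the class and a threshold of 0.05. Interaction terms gave the differences between genotypes and tissues. DESeq2 1.42.0, other gates and filters, a replicate block and leaving out libraries were alternatives. The fits were tested on simulated data.

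All 9 members were named. A further 26 pathway genes were counted, to be named where called, and 3 genes per member were named by likeness among genes with at least 10 CPM in a class. The members and lists were chosen with earlier results of these data known. The library numbers come from the labels. Deviations of same-numbered libraries from their group means correlated above 0.1 in every pair in skin fibroblasts (0.20 to 0.38), phagocytes (0.24 to 0.57), neutrophils (0.14 to 0.38) and all cells (0.14 to 0.55). In phagocytes Bleo 2 with PBS 1 correlated as much (0.314). In all cells Bleo 1 with PBS 2 (0.211) and Bleo 2 with PBS 1 (0.199) exceeded Bleo 2 with PBS 2 (0.135). Pairing by number was therefore not shown among libraries 1 and 2 in phagocytes and all cells. The block is given in these classes for some members only. The labels give bleomycin 3 times a week, whereas the study's methods say daily.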

Additional observations from a re-analysis of the deposited data

How the results depend on the processing

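Of the member-class pairs in skin, 0 were called in the reported fit (0.931% of all gene-class pairs), 4 with DESeq2 (2.98%), 1 with genotype as a term (4.71%), 2 with the gene list as a covariate (1.92%), 4 without a low-count filter (3250 of 162838 pairs), 3 with the replicate block (2.55%) and 4 with the block and own barcodes only (2.12%). Leaving out 1 library gave 0 to 1, the 1 being phagocyte Hpgd without PBS 3. Over all skin cells 0 members were called, 4 with DESeq2 (8.76% of genes), 1 without the filter (1.72%) and 3 with the block (4.42%), and leaving out 1 library gave 0 to 3, the 3 being without PBS 3. In kidney classes 0 became 1 with DESeq2 (0.323% of pairs), 6 without the filter (0.756%) and 1 with the block (0.0899%), and leaving out 1 library gave 0 to 1, the 1 being Ptgs1 in the distal convoluted tubule without vehicle 3, which was not tested with all libraries and then passed the filter only through vehicle 1 and 2, where it was high, so that the call supports nothing. Over all kidney cells leaving out 1 library gave 0 to 3, the 3 being without vehicle 3. The cause of these changes was not tested. In classes where no correlation of same-numbered libraries is given, the block called Ptger3 in skin T cells, which had passed the filter only through its PBS libraries, and Hpgd in kidney endothelial cells (-2.97, adjusted p = 0.0426, edgeR). The latter, also the DESeq2 call in kidney, had passed the filter only through its vehicle libraries. Neither pair's calls with the filter support anything. Over all genes, skin phagocytes had 6 calls against 224 with DESeq2 and 61 with the block, fibroblasts 74 against 760 and 836, and all skin cells 0 against 1333 and 674. Classes with few cells limit what could be detected.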
